A study of Mus musculus with 20 samples.

Results

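The DNA methylome of microglia from wild-type (WT) mice was described without reference to a transgene, as a baseline against which parts of the genome can be set beside each other. The members were the autosomal windows of 1000 bp with a value in the 5 WT mice of 10 months, and there were 2224981 of them among 2280867 windows in the table of that age, which also holds 52789 windows of chromosome X, 3083 of chromosome Y and 14 of the mitochondrial genome. They covered 90.3% of the 1-kb windows of the 19 autosomes, and no value was missing. Windows were sorted by the mm10 annotation of GENCODE into promoter (midpoint within 1 kb of any transcript start), exon, intron and intergenic windows, in that order of precedence, and promoters and gene bodies were also summarised by gene.

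The series compares mThy1-α-synuclein transgenic mice, in which the mouse Thy1 promoter drives expression of human α-synuclein, with WT mice at 7 and 10 months, and holds 20 libraries. The 5 libraries used here came from male WT mice on the B6D2F1/J background, the background of the transgenic line, at an age of 10 months, with no transgene and no treatment. Each library was made from the microglia of the whole brain of a single mouse, so the 5 values of a window are 5 animals. Microglia were selected with magnetic beads, which the labels name for IBA1 and the study's methods for CD11b. Purity was estimated from the protocol and not measured in each library.

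Methylation of cytosine in CpG dinucleotides is laid down by the enzymes Dnmt3a and Dnmt3b, copied after replication by Dnmt1 and oxidised on its way to removal by the Tet enzymes. Most of the CpGs of a mammalian genome are methylated, and CpG islands, dense clusters of CpGs that often hold a transcript start, are the main exception. Enzymatic methyl sequencing (EM-seq) protects methylated cytosines and deaminates unmodified ones, and the share of reads that still show cytosine is taken as the methylation level. Each value is a mean over the DNA molecules of a library, so a level between the extremes cannot separate fewer methylated cells or alleles from partial methylation in each.

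The promoter sequences of 6 genes were chosen to span different CpG contents and levels. They were taken from RefSeq (GRCm38.p6, the mm10 assembly), run 5′ to 3′ from 250 bases before the transcript start to 50 after it, and have each CpG in capitals. The level beside each is the mean of the promoter windows of 1 kb, which cover more than the printed stretch, and the CpGs of both are given. Tet2 (chr3:133544341-133544640, minus strand) is a CpG-dense promoter with little methylation, with 57 CpGs in the stretch, 132 in its promoter windows and a level of 0.613%. Dazl (chr17:50293571-50293870, minus strand), a germ cell gene, holds 28 CpGs, with 112 in its promoter windows and a level of 84.8% (75.7% in the window that holds the stretch). Peg3 (chr7:6730370-6730669, minus strand), an imprinted gene, holds 13 CpGs, with 91 in its promoter windows and a level of 40.7%. Cx3cr1 (chr9:120068247-120068546, minus strand) and P2ry12 (chr3:59262936-59263235, minus strand), genes that mark microglia, hold 5 and 4 CpGs, with 24 and 23 in their promoter windows and levels of 12.4% and 10.8% (8.11% and 8.82% without mouse 4). Aif1 (chr17:35176003-35176302, minus strand), which encodes IBA1, holds 1 CpG, with 22 in its promoter windows and a level of 76.8% (86.2% in the window that holds the stretch). Over all 32851 RefSeq promoter entries of this length the median was 7 CpGs, 94.6% held at least 1 and 14.2% held 28 or more.
Tet2: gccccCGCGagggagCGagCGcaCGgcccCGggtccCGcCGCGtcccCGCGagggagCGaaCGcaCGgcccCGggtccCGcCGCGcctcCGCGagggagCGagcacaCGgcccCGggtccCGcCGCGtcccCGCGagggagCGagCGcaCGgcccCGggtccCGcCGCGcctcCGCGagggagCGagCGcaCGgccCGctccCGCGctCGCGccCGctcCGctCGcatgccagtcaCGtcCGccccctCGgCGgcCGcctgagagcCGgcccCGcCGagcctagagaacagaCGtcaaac
Dazl: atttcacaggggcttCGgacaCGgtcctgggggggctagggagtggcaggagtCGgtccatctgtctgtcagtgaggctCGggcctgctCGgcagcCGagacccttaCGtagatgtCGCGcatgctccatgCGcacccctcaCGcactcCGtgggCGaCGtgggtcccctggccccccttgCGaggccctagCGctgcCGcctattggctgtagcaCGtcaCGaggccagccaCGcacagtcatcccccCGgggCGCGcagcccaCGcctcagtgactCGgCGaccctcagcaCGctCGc
Peg3: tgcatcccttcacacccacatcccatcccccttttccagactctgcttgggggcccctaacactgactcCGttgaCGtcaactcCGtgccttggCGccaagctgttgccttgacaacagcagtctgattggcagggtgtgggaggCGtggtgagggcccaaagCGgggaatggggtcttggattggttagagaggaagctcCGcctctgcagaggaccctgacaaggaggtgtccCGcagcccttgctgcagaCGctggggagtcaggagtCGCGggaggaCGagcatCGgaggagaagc
Cx3cr1: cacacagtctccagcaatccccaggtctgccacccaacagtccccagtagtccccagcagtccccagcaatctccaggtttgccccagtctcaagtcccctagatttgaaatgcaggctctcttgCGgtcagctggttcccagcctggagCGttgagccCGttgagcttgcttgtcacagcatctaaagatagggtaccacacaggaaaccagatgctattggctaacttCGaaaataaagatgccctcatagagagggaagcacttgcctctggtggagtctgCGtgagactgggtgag
P2ry12: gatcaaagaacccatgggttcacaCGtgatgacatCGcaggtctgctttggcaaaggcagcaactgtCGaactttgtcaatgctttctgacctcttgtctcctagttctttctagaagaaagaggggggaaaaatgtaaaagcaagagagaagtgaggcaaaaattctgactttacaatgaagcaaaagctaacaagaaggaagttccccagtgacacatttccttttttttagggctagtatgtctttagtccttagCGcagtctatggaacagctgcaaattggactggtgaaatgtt
Aif1: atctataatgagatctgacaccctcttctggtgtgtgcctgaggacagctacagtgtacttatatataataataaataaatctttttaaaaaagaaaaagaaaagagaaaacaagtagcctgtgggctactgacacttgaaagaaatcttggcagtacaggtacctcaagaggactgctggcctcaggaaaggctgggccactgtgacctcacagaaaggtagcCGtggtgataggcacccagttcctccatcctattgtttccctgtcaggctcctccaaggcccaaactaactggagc

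The 5 libraries were close to each other over the genome, with mean levels of 77.3%, 77.3%, 77.7%, 77.7% and 77.3% in mice 1 to 5 and Pearson correlations between mice over windows of 0.871 to 0.879, which are descriptions over windows that are not independent. The tables used here give fractions without read counts, and the reads were not analysed here, so the depth behind a window was not known. Mouse 4 stood apart at genes of microglia. Of the 24 promoters of a microglial identity list, 17 were highest in mouse 4, against 3, 3, 1 and 0 in the other mice, while 20.4% of all promoters were highest in mouse 4. The median of the list was 29.8% in mouse 4 and 16.8%, 17.6%, 18.7% and 14.8% in mice 1, 2, 3 and 5. Of the 19 gene bodies of the list with enough windows 16 were highest in mouse 4, against 21.2% of all 16668 tested bodies, while the median body of the list was 62.6% in mouse 4 and 62.8%, 59.99%, 60.5% and 61.2% in mice 1, 2, 3 and 5. The median promoter of all genes was 26.5% in mouse 4 and 26.1% to 26.5% in the others. Promoters of genes that mark other brain cells had medians in mouse 4 of 11.8% (neurons), 33.0% (astrocytes), 37.8% (oligodendrocyte lineage) and 56.2% (endothelium), where the other mice ranged from 9.68% to 14.5%, 31.8% to 35.4%, 36.1% to 37.5% and 54.2% to 64.5%. The part of purity in the values of mouse 4 was not tested.

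Promoter windows had the lowest methylation of the 4 gene parts and exon windows the highest. The mean over 144010 promoter windows was 65.3%, 65.2%, 65.6%, 65.4% and 65.3% in mice 1 to 5, or 65.4% ± 0.154 (SD, n = 5). The 78225 exon windows lay at 81.3%, 81.2%, 81.7%, 81.3% and 81.4%, with a mean of 81.4% ± 0.172 (SD, n = 5). The 915291 intron windows were just below at 80.3% ± 0.168 (SD, n = 5), and the 1087455 intergenic windows, 48.9% of all windows, at 76.4% ± 0.312 (SD, n = 5). The ranges of the 5 mice did not overlap between any 2 parts. Mouse 4 was the highest of the 5 in intergenic windows at 76.8%, against 76.1% to 76.5% in the others.

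**Figure D1:**
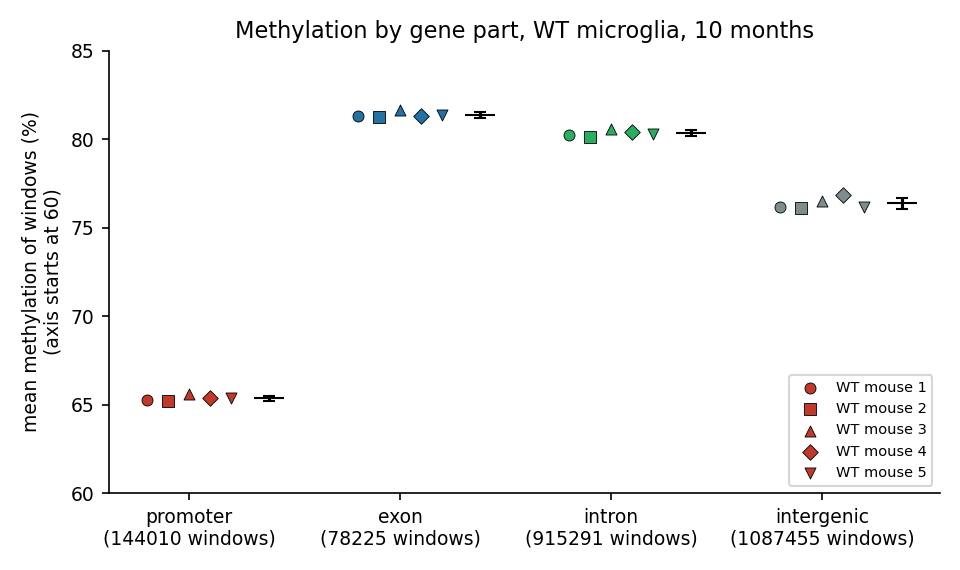
Mean methylation (%) of promoter, exon, intron and intergenic windows in each of the 5 WT mice (symbols), with the mean and SD over mice at the right of each part. The axis starts at 60, promoter windows sit near 65.4% and exon windows near 81.4%, and the spread between mice is small beside the distance between parts.

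Within mice, promoter windows were lower than exon windows by -16.0 points (percentage points of methylation, promoter minus exon, SD 0.0498), than intron windows by -15.0 points and than intergenic windows by -11.01 points. Exon windows exceeded intron windows by 1.05 points and intergenic windows by 5.01 points, and intron windows exceeded intergenic windows by 3.96 points. Each of the 6 differences had the same sign in 5 of 5 mice. In an exact two-sided sign-flip permutation test each gave p = 0.0625 (adjusted p = 0.0625 over the 6 pairs). This is the smallest p that the test allows with 5 mice, so the test cannot reach 0.05 here. The order of exon and intron windows turned when windows were weighted by their number of CpGs, with exon minus intron at -1.76 points. The sizes depended on how windows were chosen and weighted. Weighting by CpGs took promoter minus exon, intron and intergenic to -37.2, -38.9 and -36.0 points, and windows with at least 10 CpGs gave -24.1, -23.8 and -21.7 points. The medians over windows differed by -8.18, -5.58 and -0.961 points. With promoters of 2 kb on each side, promoter minus intron was -9.86 and promoter minus intergenic -5.75 points, and the latter was -17.1 points with protein-coding genes only. Exon minus intron was 0.211 points with promoters of 500 bp and 1.71 with 2 kb, 2.57 with windows classed by any overlap, 0.324 with at least 10 CpGs and 2.60 by medians. Exon minus intergenic was 1.19 points with weighting by CpGs and 2.45 with at least 10 CpGs, where intron minus intergenic was 2.12 points.

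The mean hid a promoter distribution with 2 ends. Of the promoter windows, 13.2% lay under 10% methylation and 47.7% over 80%, and their median was 78.8%. Under 10% lay 1.03% of exon windows, 0.333% of intron windows and 0.344% of intergenic windows. Promoter windows, 6.47% of all windows, made up 18964 of the 26558 windows under 10%.

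Levels followed the number of CpGs in a window, and promoters parted from the rest where CpGs were dense. Windows with 1 CpG had a mean of 70.99%, windows with 8 to 11 CpGs 80.7%, windows with 50 to 79 CpGs 12.1% and windows with 80 or more 2.32%. Promoter windows with 5 to 7 CpGs lay at 78.8%, between exon windows (82.4%) and intergenic windows (77.2%) with as many CpGs. In windows with 30 to 49 CpGs the promoter level was 24.5%, while exon, intron and intergenic windows lay at 72.2%, 68.7% and 72.3%. At 50 to 79 CpGs promoter windows were at 4.88% and intergenic windows still at 50.1%. The SD between mice of these means at 30 to 79 CpGs was 0.0562 to 0.313 points, below each of these differences. Windows with 30 to 79 CpGs away from any annotated start were therefore at a higher mean level than such windows at a start. At 50 to 79 CpGs the median window was at 16.1% in exons, 9.38% in introns and 74.2% in intergenic DNA, beside 1.82% in promoters. At 80 or more CpGs all parts were low, with means of 14.5%, 5.10% and 6.33% in exon, intron and intergenic windows and 1.69% in promoter windows.

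**Figure D2:**
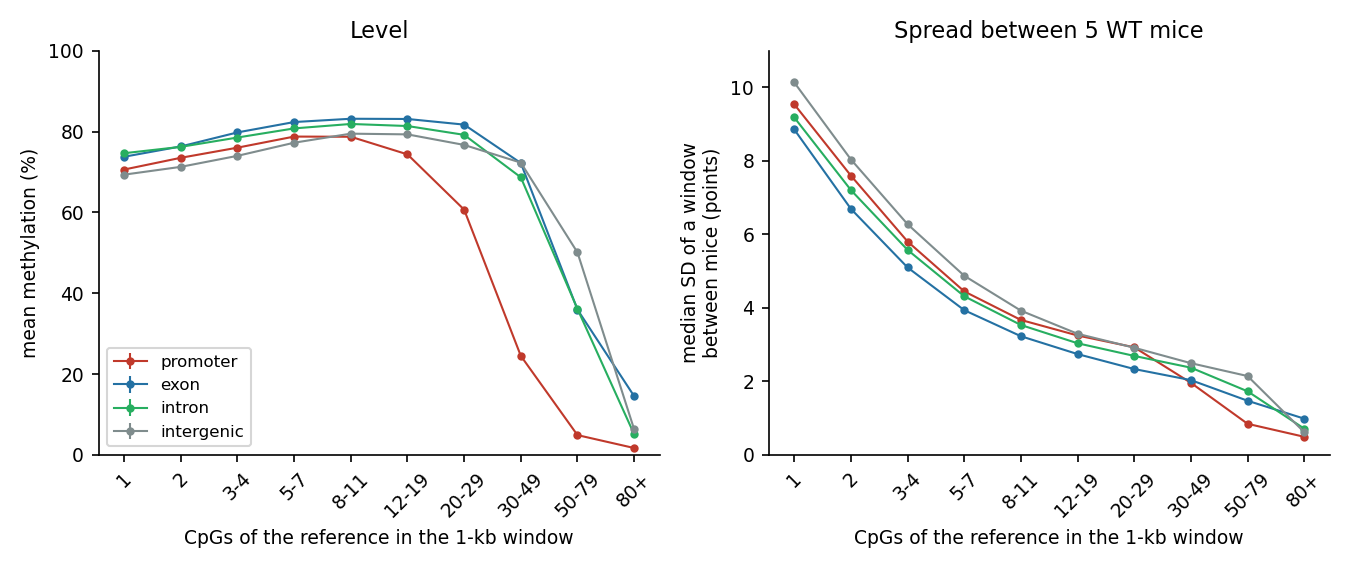
Left, mean methylation (%) of windows by the number of reference CpGs they hold and by gene part, with the SD over 5 mice as bars that are smaller than the symbols in most places. Right, the median over windows of the SD between the 5 mice (percentage points). Promoter windows leave the other parts between 12 and 29 CpGs and lie at 24.5% at 30 to 49 CpGs, and the SD falls with the number of CpGs in all 4 parts.

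The spread between mice differed between gene parts, from a median window SD of 3.26 points in exon windows to 3.50 in promoter, 4.03 in intron and 4.94 in intergenic windows. It followed the number of CpGs and the level. Windows with 1 CpG had a median SD of 9.83 points, windows with 12 to 19 CpGs 3.13 points and windows with 80 or more CpGs 0.505 points. By level, the median SD was 1.07 points under 10%, 8.15 points between 40% and 50%, where it was highest, and 2.52 points over 90%. Among windows with the same level and number of CpGs the parts were closer. With 8 to 11 CpGs and a level of 80% to 90%, the median SD was 3.64 points in promoter, 3.51 in exon, 3.61 in intron and 3.64 in intergenic windows. At 90% to 100% exon windows stayed below intergenic windows, with 2.61 against 2.94 points at 5 to 7 CpGs, 2.22 against 2.48 at 8 to 11 and 1.88 against 2.10 at 12 to 19. How much of the SD is sampling error was not tested, because depth is unknown.

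Around transcript starts the level depended on the CpG content of the promoter. The promoters of 20354 autosomal protein-coding genes were measured at the start of the principal transcript and divided into high CpG content (observed over expected CpGs above 0.75 and GC above 55%, 1986 genes), low content (observed over expected below 0.48, 9886 genes) and intermediate content (8482 genes). The window at the start had a mean of 2.28% in the high, 5.83% in the intermediate and 53.6% in the low class. The window 1 kb upstream lay at 34.0% and the window 1 kb downstream at 14.01% in the high class, so the side towards the gene was the lower one. At 5 kb upstream the 3 classes lay at 78.6%, 77.2% and 75.5%.

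**Figure D3:**
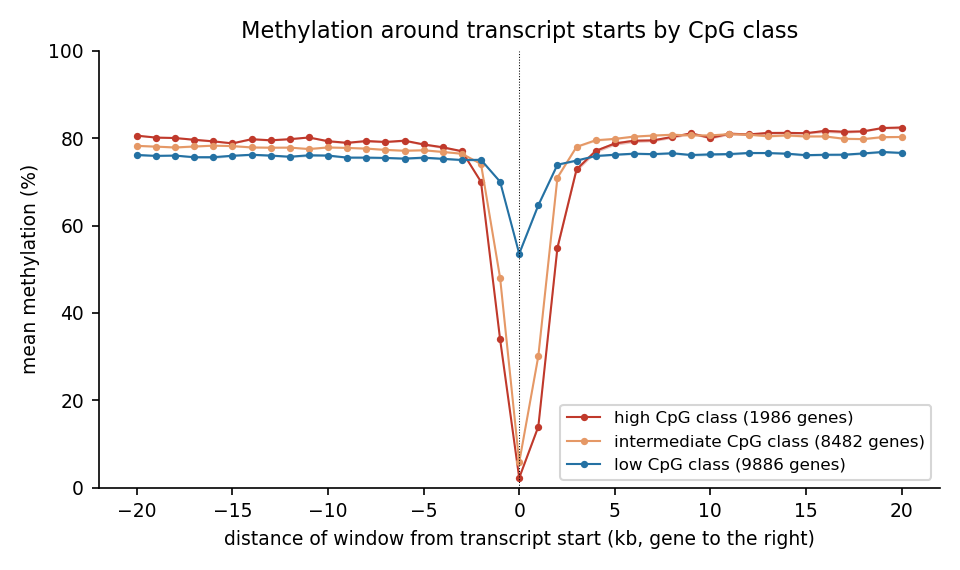
Mean methylation (%) of windows by their distance (kb) from the start of the principal transcript, with the gene to the right, as lines for promoters of high, intermediate and low CpG content, each point the mean of 5 mice. The high class reaches 2.28% at the start, the intermediate class 5.83% and the low class 53.6%, and the 3 lines come together away from the start.

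Averaged over promoter windows, the high class was at 5.30%, 5.28%, 5.39%, 5.36% and 5.49% in mice 1 to 5, the intermediate class at 15.1% ± 0.110 (SD, n = 5) and the low class at 59.1% ± 0.212 (SD, n = 5). High minus low was -53.8 points and intermediate minus low -44.0 points, in 5 of 5 mice each (exact two-sided sign-flip permutation test, p = 0.0625, the smallest possible). Of the promoters, 5255 (25.8%) were under 10% in all 5 mice, 1566 (7.69%) over 80% in all 5 and 1108 (5.44%) between 40% and 60% in all 5. Over 80% in all mice were 0 promoters of the high class, 51 of the intermediate class and 1515 of the low class.

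In the comparison of promoters with gene bodies, 16668 genes had at least 1 promoter window and 3 body windows, where body windows lie in the gene and over 1 kb from any start. Their median promoter lay at 22.2% and their median body at 82.0%, and the median difference of promoter minus body was -57.7 points. By limma on the log2 ratio of methylated to unmethylated percent, each with 1 point added, with calls at a Benjamini-Hochberg adjusted p under 0.01 and at least 25 points, 11845 genes (71.1%) were lower at the promoter and 59 (0.354%) higher, while 4764 passed in neither direction. Calls followed the CpG class, with 98.5% of tested genes lower at the promoter in the high, 97.6% in the intermediate and 38.1% in the low class. The counts per gene list below stand beside these shares of all genes. The lists are descriptions, and no list was tested as a set.

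Microglial identity genes had low promoters in spite of few CpGs. So had the inflammatory and disease-associated genes and the neuronal genes of the low CpG class, described below. Of 25 members of the microglial list, 24 had a promoter window (Gpr34, on chromosome X, had none) and 20 of these were of the low CpG class, with a median level of 27.4%, where all 9886 low-class promoters had a median of 66.5%. Without mouse 4 these medians were 25.6% and 66.4%. Of 19 tested members 13 were lower at the promoter than in the body and 0 higher, beside 71.1% and 0.354% of all tested genes. The count was 13 without mouse 4 as well. Of the 16 tested members of the low CpG class 10 were lower, beside 38.1% of all tested low-class genes. Cx3cr1 (ENSMUSG00000052336.7, promoter windows chr9:120067001-120069000), the fractalkine receptor, was at 10.9%, 9.16%, 6.97%, 29.7% and 5.44% in mice 1 to 5. Mouse 4 lay far above the other 4 mice, which were at most at 10.9%. Its body was at 68.4% ± 0.560 (SD, n = 5), and the promoter differed from it by -56.0 points (log2 -4.05, SE 0.32, limma adjusted p = 7.79e-07). Without mouse 4 the promoter was at 8.11% and the difference at -60.1 points (limma adjusted p = 3.10e-08).

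P2ry12 (ENSMUSG00000036353.13, promoter windows chr3:59262001-59264000), a purinergic receptor by which microglia sense nucleotides, was at 12.4%, 10.3%, 7.02%, 18.8% and 5.50%. Mouse 4 was again the highest, and the body of 40 windows lay at 67.2% ± 2.10 (SD, n = 5), a difference of -56.4 points (log2 -4.06, SE 0.22, limma adjusted p = 2.88e-08). Windows centred 1330 and 2330 bp into the gene lay at 17.2% and 14.8%, and those at 3330, 4330 and 5330 bp at 54.2%, 17.4% and 75.3%. Without mouse 4 the promoter was at 8.82% and the difference at -57.5 points (limma adjusted p = 1.06e-07). Sall1, a transcription factor of microglia, had a promoter of the intermediate CpG class at 4.15%, 0.769%, 1.05%, 0.666% and 1.11% in mice 1 to 5, or 1.55% on average and 0.900% without mouse 1, and was called lower there than in its body (-36.2 points, limma adjusted p = 1.89e-08, and -36.6 and -34.8 points without mouse 1 and without mouse 4, both calls).

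Levels differed between neighbouring windows at other genes of the list. Tmem119 (ENSMUSG00000054675.5, promoter windows chr5:113800001-113802000), a membrane protein used as a microglial marker, had a promoter of 51.3%, the mean of 1 window at 90.5% upstream of the start and 1 window at 12.2% on it. The next 3 windows into the gene lay at 14.9%, 19.98% and 9.80%, and the body at 33.0%, so that promoter minus body was 18.4 points (limma adjusted p = 1.76e-05, under the 25 points of a call), and 19.6 points without mouse 4. Within 500 bp of the start the difference was -17.7 points. Aif1 (ENSMUSG00000024397.14, promoter windows chr17:35175001-35177000) had 81.7%, 84.2%, 69.0%, 72.1% and 77.1% at its promoter in mice 1 to 5. Its windows 2.5 and 3.5 kb into the gene lay at 9.55% and 9.87%, with mouse 4 the highest at 21.5% and 25.9%. Csf1r, the receptor for the growth factor on which microglia depend, was at 27.1% with a body of 46.2% (-19.1 points, limma adjusted p = 0.000221, not called, and -19.4 points without mouse 4), and this difference turned to 19.3 points when the annotated 5′ end of the gene was used.

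**Figure D4:**
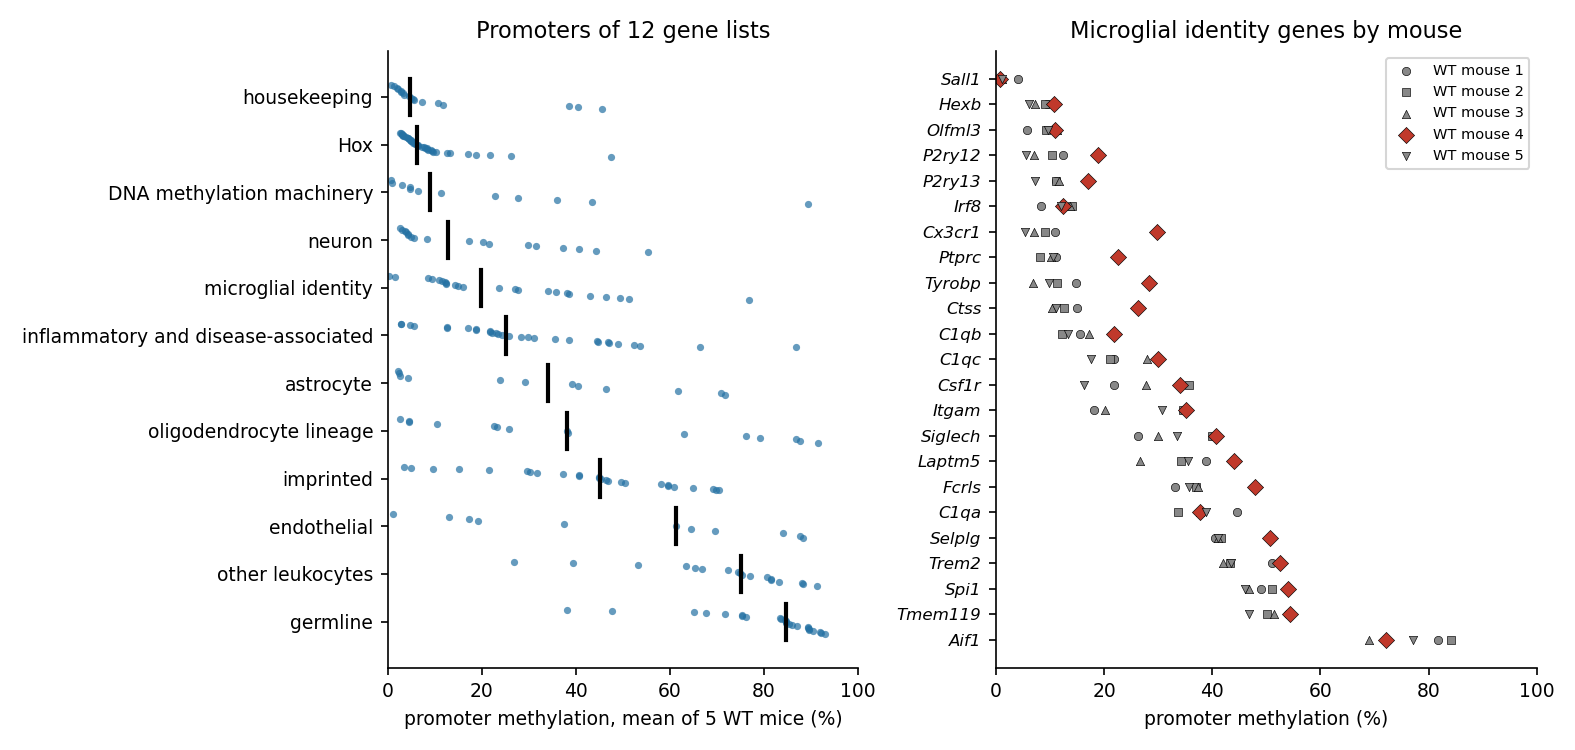
Left, promoter methylation (%, mean of 5 WT mice) of the members of 12 gene lists, with the median as a bar. Right, promoters of microglial identity genes in each mouse, with mouse 4 in red and 1 member of the list not shown. Housekeeping promoters have a median of 4.79% and germline promoters of 84.7%, and 17 of the 24 microglial promoters of the list are highest in mouse 4.

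Promoters at which 1 mouse lay at least 10 points above the other 4 were counted among the 18427 promoters with at least 10 CpGs, a count set after the values were seen. There were 51, 69, 56, 71 and 62 for mice 1 to 5. Of the 71 of mouse 4, 5 were on the microglial list (Cx3cr1, Tyrobp, Ctss, Ptprc and Fcrls) and 3 on a list of inflammatory and disease-associated genes (Nlrp3, Il1a and Ccl3), while those of the other 4 mice held 0 microglial genes and 1 inflammatory gene in all (Tlr1, mouse 2). These genes were named after their values were seen. Nlrp3, an inflammasome sensor, was at 9.63%, 7.505%, 8.47%, 29.3% and 7.92%. Tyrobp, a signalling adaptor of microglial receptors, was at 14.8%, 11.4%, 6.78%, 28.2% and 9.85%. Without mouse 4 their means moved from 12.6% to 8.38% and from 14.2% to 10.7%.

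Of 31 inflammatory and disease-associated genes 30 had a promoter window, with a median of 25.1%, and 18 of 22 tested members were lower at the promoter and 0 higher (18 without mouse 4). Of the 30 promoters 25 were of the low CpG class, with a median of 25.9%, near the 27.4% of the low-class microglial promoters. Of the 18 tested low-class members 14 were lower at the promoter, beside 38.1% of all tested low-class genes. Mouse 4 was the highest at 12 of the 30, against 20.4% of all promoters, and the median by mouse was 25.7%, 27.7%, 23.7%, 30.04% and 29.04%. Tlr6 and Myd88, a Toll-like receptor and the adaptor of this family, were lowest at 2.74% and 2.79%, and differed from their bodies by -89.5 and -73.0 points (limma adjusted p = 1.46e-09 and 3.77e-11). The highest were Itgax, a marker of activated microglia, at 66.5% and the cytokine gene Il1b at 86.7%. Clec7a had no promoter window.

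Marker genes of other cells of the brain were described in the same way. Neuronal promoters had a median of 12.7%, with 16 of 18 tested members lower at the promoter, beside 71.1% of all tested genes. Levels ran from Nefl, a neurofilament subunit, at 2.61% (-59.0 points, limma adjusted p = 1.03e-09) to Camk2a, a kinase of excitatory synapses, at 55.4% (-25.8 points, limma adjusted p = 1.88e-07, and -24.8 points without mouse 4 and -9.03 points with promoters of 2 kb, neither a call). Of the 18, 10 were of the high or intermediate CpG class, and the 8 of the low class had a median of 30.6%, near the 27.4% of the low-class microglial promoters. Of these 8 neuronal genes 7 were lower at the promoter, beside 38.1% of all tested low-class genes.

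Low-class promoters lay at a median of 43.5% for 8 astrocyte, 76.1% for 9 oligodendrocyte, 67.1% for 8 endothelial and 75.1% for 18 genes of other leukocytes, beside 66.5% over all low-class promoters. Slc1a2, a glutamate transporter of astrocytes, was at 2.24% (-78.5 points, limma adjusted p = 2.63e-11) and Gfap, an intermediate filament of astrocytes, at 71.6%, 2.98 points above its body (not called, and -16.0 points with the annotated 5′ end). Mbp, a myelin protein, was at 91.5% at its principal start (13.1 points above its body), a difference that turned to -49.1 points when the annotated 5′ end of the gene was used. Flt1, a receptor of endothelial cells, was at 1.17%. In the list of other leukocytes 2 of 13 tested members were lower at the promoter, Mrc1 at 26.9% (-58.1 points, limma adjusted p = 3.77e-09) and F13a1 at 39.3% (-47.9 points, limma adjusted p = 3.67e-08), both known from macrophages at the borders of the brain. Other genes known from such macrophages, named after their values were seen, were not called, with Ms4a7 at 65.3%, Lyve1 at 72.3% and Cd163 at 88.2%. Of the remaining members, Ccr2, a receptor of monocytes, and Cd4, a T cell coreceptor, were at 88.4% and 91.3%. Counts per list were 8 of 11 for astrocytes, 7 of 14 for oligodendrocytes and 4 of 10 for endothelial cells, with 0 higher in each list. Of all tested genes 71.1% were lower and 0.354% higher. Among tested members of the low CpG class the counts were 4 of 7, 3 of 9 and 2 of 8, beside 38.1% of all tested low-class genes.

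Germline genes were methylated at their promoters although many of these hold many CpGs. Of 25 members, 14 were of the intermediate and 11 of the low class, the median promoter was 84.7%, and 17 were over 80% in all 5 mice, where 7.69% of all promoters were. Of 23 tested members 2 were lower at the promoter, Smc1b at 38.2% and Stag3 at 47.7%, subunits of meiotic cohesin. The 51 intermediate-class promoters over 80% in all mice were looked at after the rule for high-class promoters gave 0 genes. The 6 of these with the most CpGs were Hsf5, Flg, Dazl, Sycp1, Ddx4 and Hist1h2aa. Hsf5, a heat shock factor of the testis, held 122 CpGs and was at 96.3%, 96.0%, 93.8%, 96.2% and 96.0%. Dazl (ENSMUSG00000010592.9, promoter windows chr17:50293001-50295000), an RNA-binding protein of germ cells, was at 82.3%, 86.2%, 88.7%, 83.4% and 83.1%. The window centred 1135 bp after the start, with 45 CpGs, lay at 3.02% ± 1.85 (SD, n = 5), and the next 4 windows into the gene at 34.1%, 59.9%, 34.4% and 84.7%. With promoters of 2 kb on each side, Dazl turned from 18.02 points above its body to -10.3 points.

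Imprinted genes, which are methylated on the allele of 1 parent at control regions, had a median promoter of 45.2%. Of their 26 promoters 4 were of the high and 17 of the intermediate CpG class. None was over 80% in all mice, where 7.69% of all promoters, 0% of the high and 0.601% of the intermediate class were. Of 17 tested members 14 were lower at the promoter, beside 71.1% of all tested genes. In the high and intermediate classes 98.5% and 97.6% of all tested genes were lower. Peg3 (ENSMUSG00000002265.16, promoter windows chr7:6729001-6731000) was at 43.2%, 36.9%, 41.8%, 42.2% and 39.4%, and Mest (ENSMUSG00000051855.15, promoter windows chr6:30737001-30739000) at 47.9%, 51.5%, 37.95%, 43.5% and 53.7%. Both were named after their values were seen. Around the Mest start 5 neighbouring windows, centred from -2549 to 1451 bp of it, lay between 44.8% and 51.4%, while the windows over 2 kb into the gene lay at 88.6% to 91.3%. Rasgrf1 and Grb10 were lowest at 3.37% and 5.04%, and Slc38a4 and Ndn highest at 70.5% and 69.7%. Peg10 and Sgce share their promoter windows, at 44.9%. The non-coding Peg13, Meg3, Airn, Kcnq1ot1 and H19 lay at 45.7%, 51.9%, 63.3%, 65.5% and 69.0%.

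Hox genes, the homeobox genes of body axis patterning, were low at the promoter and in the body. Of their promoters 7 were of the high and 27 of the intermediate CpG class, classes with medians of 2.49% and 10.3% over all genes. The 39 promoters had a median of 6.23%, 25 were under 10% in all mice, and the bodies of the 18 tested members had a median of 19.2%, beside 82.0% over all tested genes. As both lay low, 1 member was called lower at the promoter, Hoxd3 at 2.72% (-39.2 points, limma adjusted p = 7.59e-10). The annotated Hoxd3 gene spans Hoxd4, so its body is not separate from that of Hoxd4. Hoxb3 was the highest at 47.4%, -0.43 points from its body, a sign that turned without mouse 1 or mouse 5 and under other promoter definitions.

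Housekeeping genes had a median promoter of 4.79%, with 9 of 10 tested members lower at the promoter. Of their 18 promoters 15 were of the intermediate CpG class, in which 97.6% of all tested genes were lower. Hsp90ab1, a chaperone, and B2m, the light chain of class I molecules, were lowest at 0.638% and 1.25%. Ppia, a prolyl isomerase, was highest at 45.6% (-20.5 points, not called) and reached -63.6 points, a call, within 500 bp of the start. Among 12 genes of DNA methylation itself 10 of 11 tested were lower at the promoter, led by Tet2 at 0.613% and Dnmt3a at 0.860%. Of the 12 promoters 2 were of the high and 8 of the intermediate class, in which 98.5% and 97.6% of all tested genes were lower. Tet1, a dioxygenase like Tet2, was at 91.5%, 85.7%, 88.6%, 92.1% and 88.7% at its principal start, above 80% in every mouse and 3.53 points above its body (limma adjusted p = 0.0186, not called).

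Chemosensory receptors, which belong to large families of related genes in clusters, had promoters with few CpGs. The 1076 olfactory receptor promoters had a median of 71.9% and the 265 vomeronasal receptor promoters of 66.3%, near their bodies at 73.6% and 69.2%. Of tested olfactory receptor genes 36 of 587 were lower and 12 higher at the promoter, and of vomeronasal receptor genes 19 of 218 lower and 1 higher. Olfr1085 was lowest at 22.8% and Olfr693 highest at 96.8%, while Vmn1r230 was listed at 0 in all 5 mice. These extremes rest on few CpGs, with 2 at each of the Olfr1085 and Olfr693 promoters and 1 at that of Vmn1r230. Where members are near-identical, reads may be split between genes or lost, so single values are uncertain. Identity between members was not measured.

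The 59 genes higher at the promoter than in the body were of the low CpG class in 57 cases and had under 10 body windows in 52. Of the 10 with the largest differences, Tchh, a structural protein of the hair follicle (ENSMUSG00000052415.5, promoter windows chr3:93441001-93443000), led with 89.1%, 93.9%, 88.5%, 90.3% and 91.2% at the promoter and 6.91% ± 1.84 (SD, n = 5) in the body (83.7 points, log2 6.77, SE 0.19, limma adjusted p = 2.44e-10). Prss56, Vsig8, Jsrp1 and Olfr1170 followed with 56.2, 54.9, 53.6 and 52.1 points, although Vsig8 fell to 9.26 points within 500 bp of its start. The other 5 were Rap2b, Urad, Sost, Hfe2 and Hrc, with 43.2 to 44.7 points.

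Gene bodies ranged widely among the 11833 genes with at least 10 body windows. Among the lowest were those of Nkx2-2 (10.4%), Tfap2b (12.5%), Hoxc5 (15.1%) and Zic4 (15.5%), all transcription factors of development, and their promoters lay at 2.97% to 11.1%. The annotated Hoxc5 gene spans Hoxc9, Hoxc8 and Hoxc6, so its body is not separate from theirs. The highest were those of the zinc finger genes Zfp110 (97.4%), Zfp68 (97.2%), Zfp157 (96.8%), Zfp518b (96.6%) and Zfp763 (96.3%). Zfp110 had a promoter of 10.1% ± 1.33 (SD, n = 5), so that promoter and body were -87.3 points apart (limma adjusted p = 1.82e-11).

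A minority of promoters varied widely between mice, with an SD over 10 points at 396 of 20354. The 10 largest, chosen for their SD and described without a test, were Skint11, Olfr99, Tdpoz1, Zscan4-ps2, Mup8, Olfr55, Olfr1315-ps1, Olfr27, Nlrp1a and Olfr1082, each measured in 1 window with 1 to 8 CpGs. Skint11, a gene related to butyrophilins, was at 5.45%, 93.1%, 39.1%, 85.3% and 90.5%, with 2 CpGs in its window. Nlrp1a, an inflammasome sensor with 5 CpGs, was at 18.4%, 67.2%, 24.7%, 46.8% and 58.5%. Both had mice 1 and 3 as the lowest. Sequence differences between the mice were not measured, and the cause of the spread was not tested.

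Autosomes differed by a few points, and the difference was stable between mice. Chromosome 13 was the highest at 80.003% ± 0.209 (SD, n = 5) and chromosome 7 the lowest at 76.0% ± 0.207 (SD, n = 5), and within mice they differed by 4.03 points with an SD of 0.0276. The SD of the 19 means was 1.11 points, while the median SD between mice of 1 autosome was 0.2298 points. Against the mean of the other autosomes of the same mouse, 9 autosomes were higher in 5 of 5 mice and 9 lower in 5 of 5 (exact sign-flip permutation test, p = 0.0625 each, the smallest possible, adjusted p = 0.0660 over the 19 autosomes). Chromosome 19 was lower in 3 of 5 mice (exact permutation p = 0.5, adjusted p = 0.5).

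**Figure D5:**
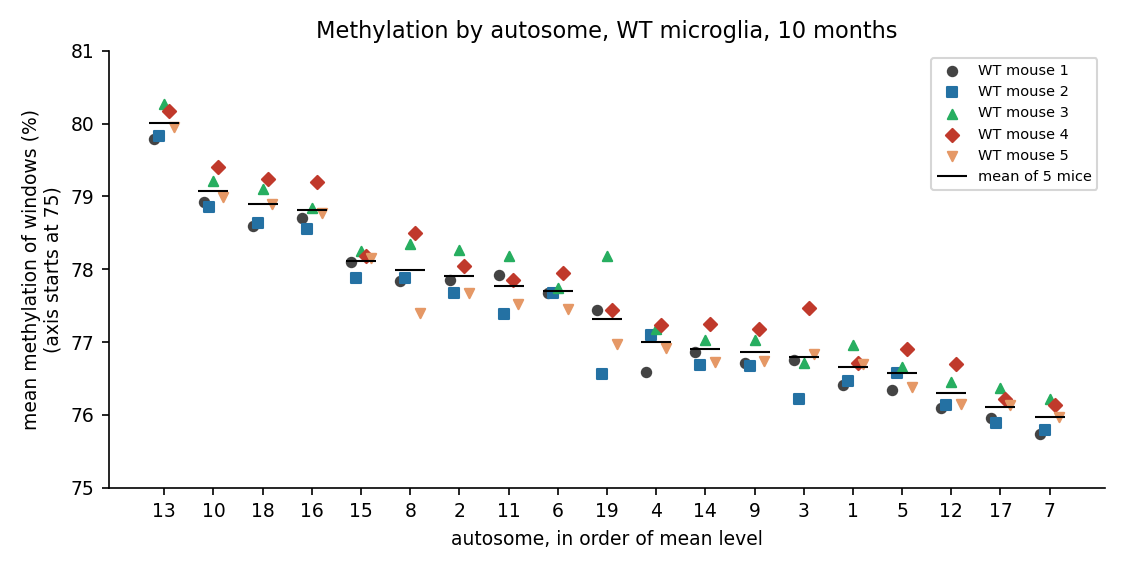
Mean methylation (%) of all windows of each autosome in each of the 5 WT mice (symbols) with the mean as a line, in order of the mean. The axis starts at 75, chromosome 13 sits at 80.003% and chromosome 7 near 76.0%, and the mice are widest apart on chromosome 19.

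In the order of levels (13, 10, 18, 16, 15, 8, 2, 11, 6, 19, 4, 14, 9, 3, 1, 5, 12, 17 and 7), 6 of the 18 neighbouring pairs had the same order in all 5 mice. These were 13 and 10, 10 and 18, 16 and 15, 5 and 12, 12 and 17, and 17 and 7, and the other 12 pairs did not keep 1 order in all mice. Promoter windows were the lowest part in 95 of 95 combinations of autosome and mouse, and the full order of exon, intron, intergenic and promoter held in 84. Over the 19 autosomes the level went with that of intergenic windows (Pearson r = 0.967, Spearman rho = 0.970) and of intron windows (r = 0.907, rho = 0.875), both part of it, and less with that of promoter windows (r = 0.312, rho = 0.235) or the mean number of CpGs per window (r = -0.0964, rho = -0.0737), as descriptions over chromosomes that share the same 5 libraries. In intergenic windows alone chromosome 13 exceeded chromosome 7 by 3.74 points.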

How the data were processed

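EM-seq libraries of microglia from 5 WT mice of 10 months were used. Per their methods the authors trimmed and aligned the reads and summarised methylation in windows of 1000 bp, and the submitters' processing notes name Trim Galore 0.6.7, Bismark 0.23.1, Bowtie2 2.2.5, methylKit 1.22.0 and mm10 (GRCm38). The authors deposited 1 methylation fraction per window and mouse, converted here to percent. The tables used here hold no read counts and the reads were not analysed, so depth was not known, and no interval or coverage minimum was set. The libraries were sequenced in 2 batches that the labels do not assign, so no value within batches is given.

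Windows were classed by their midpoint with GENCODE vM21. Means per mouse were compared by exact two-sided sign-flip permutation tests, with Benjamini-Hochberg adjustment within each family. Promoter (within 1 kb of the APPRIS principal start) and body of a gene were compared by limma 3.58.1 in R 4.3.3 on within-mouse differences, with a pseudocount of 1 point, after a check on simulated data. Python 3.11.15, numpy 2.4.6, pandas 2.3.3, scipy 1.17.1 and matplotlib 3.10.9 were used otherwise. RefSeq promoters matched 15416 of 20354 genes by symbol.

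Named genes were the 2 lowest and 2 highest promoters of each of 14 lists, 5 microglial genes, the 10 largest excesses of promoter over body, the 10 promoters with the largest SD, high-class promoters of 80% or more in all mice, and the 5 lowest and 5 highest bodies (some of these genes are not reported here). Members, lists and rules were chosen with earlier results of these data known. Alternatives varied the promoter width, window class, transcript start, gene set, CpG minimum, weighting, summary, scale, thresholds, CpG class limits and the mice included.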

Additional observations from a re-analysis of the deposited data

Results flagged for a closer look

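In 9 of the 122 sets of 5 values examined (7.38%), 1 mouse lay far from the other 4 by Dixon's criterion, where chance gives about 1 in 20. Mouse 4 was far above the others at the Cx3cr1 promoter, at 29.72% against 5.439% to 10.85%. Mouse 3 gave 5 of the 9. It was the highest in the mean of exon windows, at 81.68% against 81.24% to 81.36%, at the Hoxd3 promoter, at 4.648% against 2.108% to 2.331%, and at the Ppia promoter, at 49.13% against 43.94% to 45.41%. It was the lowest at the promoter of Hsf5, at 93.81% against 95.98% to 96.28%, and at that of the olfactory receptor gene Olfr686, at 77.5% against 97.22% to 100%. The other 3 were promoters near 0. Sall1 was at 4.146% in mouse 1 against 0.6663% to 1.114%, the neurofilament gene Nefm at 3.679% in mouse 5 against 2.92% to 3.124%, and Olig1, a transcription factor of the oligodendrocyte lineage, at 3.62% in mouse 2 against 2.254% to 2.55%. The cause of these values was not tested.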

How the results depend on the processing

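No paired analysis was possible because only 1 group of mice was used, so no groups could be paired by replicate number, while genome parts were compared within each mouse. Leaving out each mouse kept the sign of all 6 differences between gene parts, of the 3 between CpG classes and of chromosome 13 minus chromosome 7, with a smallest possible p of 0.125. Exon minus intron turned to -1.76 points with windows weighted by CpGs. The difference in median window SD of intergenic minus exon windows, 1.68 points, was 1.72 with promoters of 2 kb, 1.76 with protein-coding genes only, 1.44 and 0.707 with at least 3 and 10 CpGs, 1.80 for the mean SD, 4.12 for the range of mice and 1.58 to 1.68 without each mouse. Genes higher at the promoter, 59, numbered 90 and 35 with promoters of 500 bp and 2 kb, 7 with at least 10 body windows, 609 and 5 with differences of 10 and 50 points, and 54 to 61 without each mouse. Genes lower at the promoter numbered 9221 to 12997 over all alternatives. Of 40 named genes, 26 kept sign and call under every alternative run. Signs turned with the annotated 5′ end at Gfap (-16.0), Mbp (-49.1), Csf1r (19.3), Flg (-3.45) and Hoxb3 (24.9), with 500 bp at Tmem119 (-17.7) and Hoxb3 (1.72), with 2 kb at Dazl (-10.3) and Ddx4 (0.613), and without 1 mouse at Hoxb3 (0.727 and 1.53, range -2.22 to 1.53) and Ddx4 (0.135, range -2.27 to 0.135). Against the other autosomes, chromosome 6 turned to -0.258 and chromosome 19 to 0.428 with medians, chromosome 19 to 0.253 in intergenic windows and chromosome 11 to -0.0265 with at least 3 CpGs. The cause was not tested. Levels without mouse 4, that of Sall1 without mouse 1 and counts per gene list without each mouse were added after the data were seen, and the counts stayed at 13 for microglial and at 18 to 19 for inflammatory genes. Depth is unknown, so windows with few CpGs carry an unknown sampling error.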

Other observations

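Over 2370 bins of 1 Mb with at least 500 windows the mean level ran from 60.6% to 89.5%, with a median of 77.7% and a median SD between mice of 0.390 points. Over these bins the level and the mean number of CpGs per window had a Pearson r of 0.334, a description over bins of the same 5 libraries, where it was -0.0964 over the 19 autosomes. The highest bin, chromosome 2 from 44000001 to 45000000, holds the start of Gtdc1, and the lowest, chromosome 14 from 110000001 to 111000000, that of Slitrk6. In 51 bins the SD exceeded 2 points. The widest, chromosome 19 from 17000001 to 18000000 with the starts of Gcnt1, Pcsk5 and Rfk, was at 74.1%, 67.04%, 80.3%, 74.0% and 72.9% in mice 1 to 5. The next, chromosome 2 from 51000001 to 52000000 with the starts of Nmi, Rbm43, Rnd3 and Tas2r134, was at 77.4%, 75.8%, 82.2%, 71.7% and 70.6%. Mouse 3 was the highest in both. These bins were chosen for their values and were not tested, and neither was the cause of their spread.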
